A study of Mus musculus with 10 samples.

Results

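The Hox genes are homeobox transcription factors that lie in 4 clusters, *Hoxa* on mouse chromosome 6, *Hoxb* on chromosome 11, *Hoxc* on chromosome 15 and *Hoxd* on chromosome 2. The members described here were chosen by name, as the protein-coding genes whose symbol is *Hoxa*, *Hoxb*, *Hoxc* or *Hoxd* followed by a paralog number from 1 to 13. All 39 were found in each of the 10 tumor profiles, 11 of *Hoxa*, 10 of *Hoxb*, 9 of *Hoxc* and 9 of *Hoxd*, among 35275 listed genes of which 22026 are protein-coding. The rule itself used no measured value, though it was set with earlier results of these data known.

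In the embryo, Hox genes are switched on along each cluster in the order in which they lie, so that genes of low paralog number are used from the hindbrain backwards and genes of high number only towards the tail and the ends of the limbs. The most posterior gene that a cell uses is therefore read as a mark of where along the body it arose. Adult skin keeps part of this pattern, mainly in the fibroblasts of the dermis, while the skin of the face, which comes from the neural crest, is known for using few Hox genes. Trithorax proteins keep active Hox genes on and Polycomb proteins keep silent ones off, and Pbx, Meis and Pknox proteins bind DNA together with Hox proteins.

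The profiles came from cutaneous squamous cell carcinomas of mice, 5 labelled LDHA-/- and titled KO1 to KO5 (the Ldha-null tumors) and 5 labelled wild type and titled WT1 to WT5, and by the series design every profile is that of another mouse. *Ldha* encodes lactate dehydrogenase A. By the study's methods, tumors in either genotype were driven by Cre-dependent alleles, p53 fl/fl among them, recombined in adult hair follicle stem cells by K15CrePR and mifepristone or Lgr5CreER and tamoxifen, or by DMBA and TPA applied to shaved back skin, and the null mice carried Ldha fl/fl besides. Which of these models gave the sequenced tumors is not stated, the deletion was mosaic in some tumors of the study, and the mice were of mixed background and of both sexes, with induction in the telogen phase of the hair cycle. The labels give no body site for any tumor, so what the Hox genes show about position could not be set against a known site. The source is labelled squamous carcinoma cells, but the protocol names whole fresh tumors and no sort, so stroma and adjoining skin can contribute.

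Expression of the targeted gene did not separate the labels. *Ldha* stood at 1882, 246, 1288, 542 and 324 FPKM (fragments scaled by gene length and library size, the authors' unit) in KO1 to KO5, and at 390, 340, 345, 589 and 2824 FPKM in WT1 to WT5. The means were 857 ± 316 and 898 ± 484 FPKM (SEM, n = 5 each), with an edgeR log2 difference of 0.33 (SE 0.90, adjusted p = 0.999). KO and WT below therefore name the label of a library, not a measured loss of *Ldha*. Gene counts cover all annotated exons, so a transcript that lacks only some of them is still counted. Total counts were 12969508 to 17694201 per tumor. KO1 held skeletal muscle RNA, with 8 of 8 muscle markers far above every other tumor and their summed level at 105700 FPKM against 50.2 to 251 FPKM elsewhere. The 8 fibroblast markers summed to 747 FPKM in that tumor, 2857 FPKM in KO3 and 4710 FPKM in WT5, and to 7679 to 13020 FPKM in the other 7. Single markers did not all follow the sum. *Dcn* was at 396 FPKM in KO1 against 249 FPKM in KO2, and *Col1a1* at 1719 FPKM in WT5 against 583 FPKM in KO5. The 7 keratinocyte markers summed to 34680 FPKM in KO3 and 35020 FPKM in WT5, against 197 to 5261 FPKM elsewhere. In bulk tumors, fewer cells of a type and less RNA per cell cannot be told apart.

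Most Hox genes were expressed in some tumors and not in others. A gene was counted as expressed at 1 FPKM or more, the higher of the 2 limits that the study's methods give. By this limit 4 of the 39 genes (*Hoxa3*, *Hoxc4*, *Hoxd8* and *Hoxd9*) were expressed in all 10 tumors, 23 in some and 12 in none. *Hoxa13*, *Hoxb1*, *Hoxb13*, *Hoxd12* and *Hoxd13* had 0 counts in every tumor, which at 3 counts allows a level of at most 0.170 to 0.231 CPM (counts scaled to library size). The 9 genes of paralog numbers 11 to 13, which pattern the tail, the ends of the limbs and the genital region, gathered 151 counts over all tumors, and only 18 of these came from genes other than *Hoxc13*. *Hoxc13* in KO3 was the only gene among them to reach 1 FPKM.

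**Figure D1:**
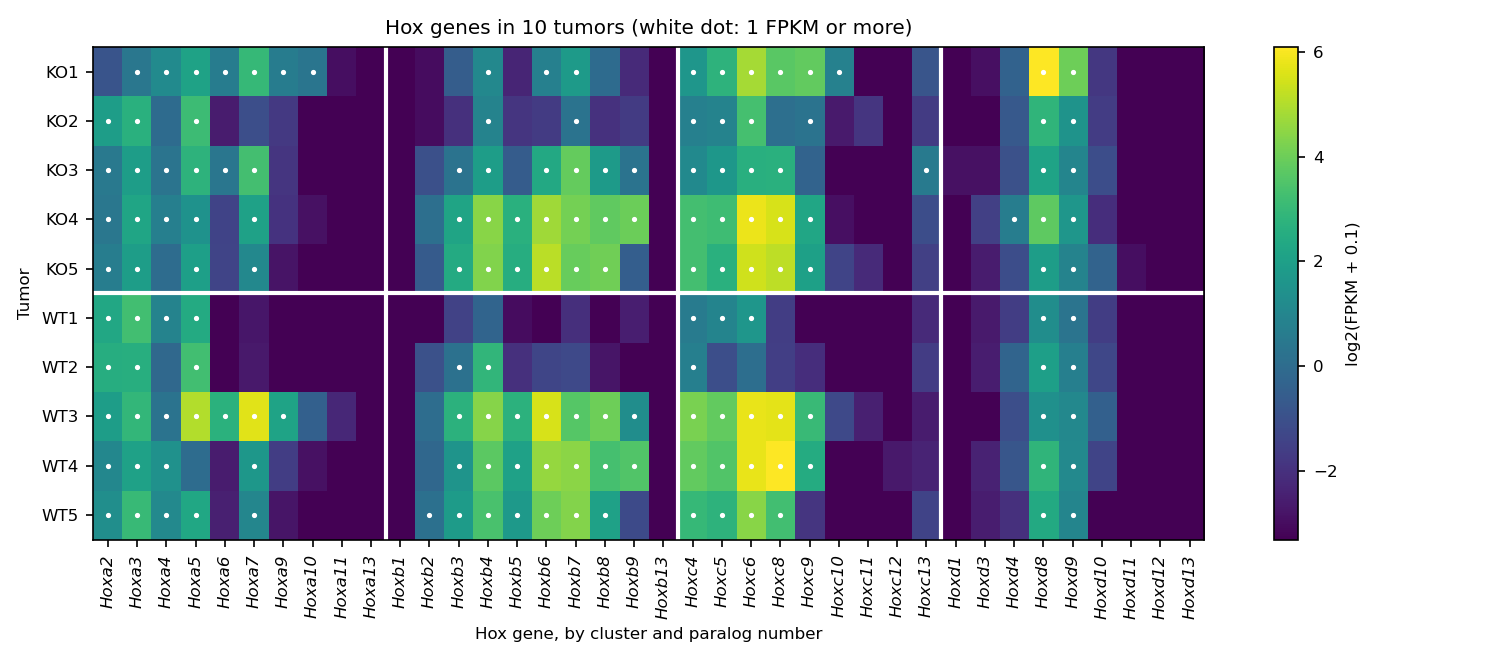
Level of 38 Hox genes (columns, by cluster and paralog number) in each of the 10 tumors (rows), as log2(FPKM + 0.1) by colour, with a white dot at 1 FPKM or more. The columns for paralogs 11 to 13 are dark but for *Hoxc13* in KO3, *Hoxd8* and *Hoxd9* are lit in every row, and WT1 and WT2 are dark from *Hoxb5* and from *Hoxc8* onwards.

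The anterior *Hoxa* genes were present in nearly every tumor. *Hoxa3*, needed for the thymus and parathyroid, stood at 1.23, 6.29, 3.73, 4.56 and 3.697 FPKM in KO1 to KO5 and at 9.51, 5.94, 7.48, 4.103 and 8.02 FPKM in WT1 to WT5. *Hoxa2*, which patterns the second pharyngeal arch, stood at 0.444, 3.69, 1.304, 1.22 and 1.48 FPKM and 4.95, 5.75, 3.72, 1.98 and 2.42 FPKM in the same order. Both were lowest in the muscle-rich KO1, and the ranges of the genotypes overlapped. *Hoxa4* reached 1 FPKM in 7 tumors, with a highest value of 2.66 FPKM. Of the annotated exon bases of *Hoxa3*, 27.1% lie in other genes too, and union-mode counting without strand leaves out fragments that overlap more than 1 annotated gene.

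Further along the *Hoxa* cluster the tumors parted. *Hoxa5*, used at the neck and upper chest and in the lung, was at 4.195, 8.67, 6.65, 2.73 and 3.87 FPKM in the Ldha-null tumors and at 5.36, 9.51, 32.1, 0.903 and 4.76 FPKM in the wild-type tumors. *Hoxa7*, the *Hoxa* gene of highest mean, was at 7.91, 0.384, 9.58, 4.15 and 2.01 FPKM and 0.0482, 0.0565, 51.02, 3.05 and 1.88 FPKM. WT3 was the highest of all 10 for both genes, while *Hoxa7* was all but absent in WT1 and WT2 where *Hoxa5* was plainly present. *Hoxa6*, which lies between them, had a like pattern, at 6.44 FPKM in WT3 and at 0 in WT1 and WT2.

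The posterior *Hoxa* genes were expressed in KO1 and WT3 only, among the 10 tumors at 1 FPKM. *Hoxa9*, also a gene of blood progenitors, stood at 1.46, 0.193, 0.177, 0.161 and 0.0404 FPKM and 0, 0, 4.37, 0.226 and 0.0444 FPKM. *Hoxa10*, of the lumbar spine and uterus, stood at 1.16, 0, 0, 0.0357 and 0 FPKM and 0, 0, 0.639, 0.0335 and 0 FPKM, so that 34 counts put KO1 just above the limit and 14 counts left WT3 just under it. *Hoxa11*, of the forearm and shank, was at 0.0262 FPKM in KO1 and 0.106 FPKM in WT3, and at 0 in the other 8. Of its exon bases, 35.0% lie in the noncoding gene *Hoxa11os* too.

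The *Hoxb* cluster went from no gene at 1 FPKM in WT1 to 7 genes in KO4, WT3, WT4 and WT5. *Hoxb4*, a gene known from blood stem cells, was at 2.02, 1.76, 3.702, 21.6 and 19.9 FPKM in KO1 to KO5 and at 0.725, 7.32, 20.6, 13.02 and 10.4 FPKM in WT1 to WT5. *Hoxb6*, the *Hoxb* gene of highest mean, was at 1.61, 0.212, 5.01, 27.1 and 34.9 FPKM and 0, 0.2901, 46.7, 24.2 and 16.1 FPKM. *Hoxb7* was at 3.46, 1.12, 14.7, 17.3 and 14.8 FPKM and 0.14, 0.328, 12.2, 21.9 and 20.4 FPKM. WT1 lay at the bottom for all 3 genes, WT2 kept *Hoxb4* without *Hoxb6* or *Hoxb7*, and KO4, KO5 and WT3 to WT5 expressed all of them strongly.

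*Hoxb8* and *Hoxb9*, used in the trunk, marked the posterior end of the cluster, since *Hoxb13* had no count. *Hoxb8* stood at 0.893, 0.157, 3.41, 13.8 and 16.7 FPKM and 0, 0.04601, 15.99, 9.93 and 4.102 FPKM, high in tumors of either genotype and near 0 in KO2, WT1 and WT2. *Hoxb9* stood at 0.119, 0.215, 1.097, 15.7 and 0.6005 FPKM and 0.07203, 0, 2.39, 11.6 and 0.331 FPKM. KO4 and WT4 were far above the rest, and the gene was under 1 FPKM in KO5, where *Hoxb8* was at its highest. *Hoxb3* reached 6.58 FPKM and *Hoxb5* 6.62 FPKM in WT3, while *Hoxb2* passed the limit in WT5 alone, at 1.01 FPKM. Of the exon bases of *Hoxb3* and *Hoxb2*, 52.9% and 27.3% lie in other genes too.

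The starts of *Hoxb4* and *Hoxb8* are shown because WT2, and by the same limit KO1 and KO2, used the former and not the latter. Each line gives the 120 bases before the transcription start on the plus strand (RefSeq, GRCm38.p6), at chr11:96318147-96318266 for *Hoxb4* and chr11:96281785-96281904 for *Hoxb8*, with the letters TTTAT in capitals. TTTAT is the core of the site bound by Cdx proteins and by posterior Hox proteins, and it was searched on both strands.
Hoxb4: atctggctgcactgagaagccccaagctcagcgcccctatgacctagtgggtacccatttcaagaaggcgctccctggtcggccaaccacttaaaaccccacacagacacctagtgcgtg
Hoxb8: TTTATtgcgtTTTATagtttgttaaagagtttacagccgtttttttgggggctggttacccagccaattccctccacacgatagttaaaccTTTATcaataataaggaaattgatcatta
The motif occurred 3 times before *Hoxb8* and 0 times before *Hoxb4*. It occurred in 20.8% of 27025 mouse promoters of this length and in 3 of the 22 Hox genes with an entry in the table (*Hoxb8*, *Hoxd11* and *Hoxd4*), so the letters are common and the match is a description of the sequence alone.

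The Hox clusters also carry microRNAs, small RNAs that repress transcripts by pairing with their 3′ ends. miR-196a-5p is made from a gene between *Hoxb9* and *Hoxb13* (chr11:96265187-96265208, plus strand) and from another between *Hoxc10* and *Hoxc9* (chr15:102973365-102973386, plus strand), and miR-196b-5p from *Hoxa9* (chr6:52230129-52230150, minus strand). Their sequences are shown with sites in genes over which the tumors differed widely, with the seed (bases 2 to 8 of the microRNA) or the bases facing it in capitals. Mature sequences are from RefSeq (GRCm38.p6) and the sites from GENCODE transcripts of the same build, each written 5′ to 3′.
miR-196a-5p: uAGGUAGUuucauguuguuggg
miR-196b-5p: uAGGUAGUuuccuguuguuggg
Hoxb8 site: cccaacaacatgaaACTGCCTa
Hoxa7 site: actactagccctaaACTACCTa
Hoxb7 site: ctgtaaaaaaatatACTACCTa
Hoxb6 site: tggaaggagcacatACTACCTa
Hoxc8 site: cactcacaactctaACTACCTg
Of the 22 bases of the *Hoxb8* site, 21 form Watson-Crick pairs with miR-196a-5p and 1 forms a G-U pair, and no other of 21028 annotated 3′ UTRs held an ungapped site of 18 or more Watson-Crick pairs. An exact seed match (ACTACCT) lies in 9 of 39 Hox 3′ UTRs (among them *Hoxa4*, *Hoxa5*, *Hoxa7*, *Hoxa9*, *Hoxb1*, *Hoxb6*, *Hoxb7* and *Hoxc8*) and in 6.10% of all 3′ UTRs. The microRNAs themselves were not measured in these libraries, so no level of theirs can be set beside these genes.

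**Figure D2:**
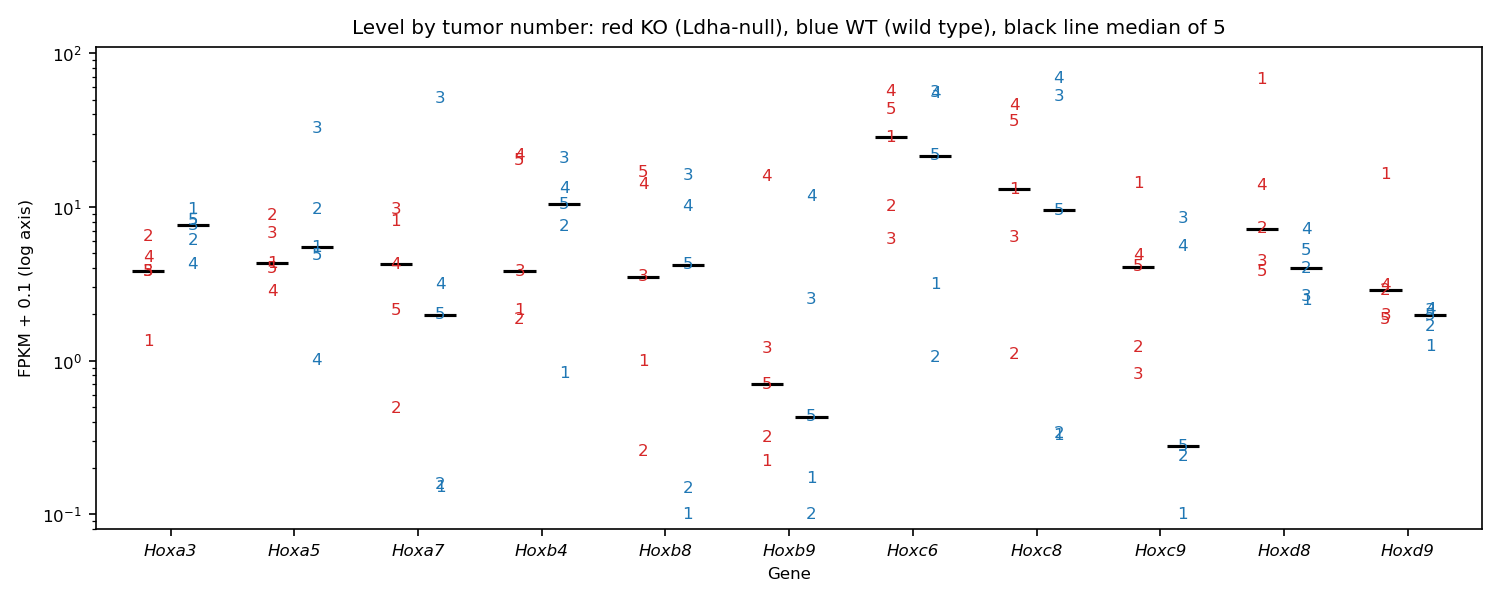
Level of 11 Hox genes in each tumor, as FPKM + 0.1 on a log axis, with each tumor drawn as its number, Ldha-null in red and wild type in blue, and the median of 5 as a black line. *Hoxa3* and *Hoxd9* lie in narrow bands but for KO1, while *Hoxb8*, *Hoxb9*, *Hoxc8* and *Hoxc9* are spread widely within each genotype.

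The single most abundant Hox gene was a *Hoxc* gene in 6 of the 10 tumors, and by summed level the *Hoxc* cluster led in KO4, KO5, WT3 and WT4. *Hoxc6*, of the chest and mammary gland and the Hox gene of highest mean, stood at 28.4, 10.03, 6.02, 56.5 and 42.8 FPKM in KO1 to KO5 and at 3.01, 0.949, 55.4, 54.9 and 21.5 FPKM in WT1 to WT5. *Hoxc4* stood at 2.997, 1.64, 2.104, 9.54 and 9.74 FPKM and 1.42, 1.56, 18.4, 14.3 and 7.77 FPKM, and was expressed everywhere. WT1 and WT2 were the lowest for both genes. *Hoxc5* spanned 0.385 FPKM in WT2 to 14.2 FPKM in WT3.

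Of the mid-trunk genes of this cluster, *Hoxc8* passed the limit in the tumors with *Hoxb8* and in KO1. *Hoxc8*, which specifies thoracic vertebrae and nerve cells that supply the forelimb, was at 12.98, 0.991, 6.23, 45.9 and 36.2 FPKM and 0.227, 0.233, 51.97, 68.7 and 9.46 FPKM. *Hoxc9*, a gene of the lower chest, was at 14.2, 1.12, 0.707, 4.73 and 3.99 FPKM and 0, 0.136, 8.36, 5.41 and 0.177 FPKM. KO1 had the highest *Hoxc9* of all, and KO3 and WT5 had *Hoxc8* with *Hoxc9* under the limit. *Hoxc10*, of the lumbar region and hindlimb, was at 1.69, 0.0607, 0, 0.0316 and 0.286 FPKM and 0, 0, 0.323, 0 and 0 FPKM, past the limit only in KO1. *Hoxc11* reached at most 0.172 FPKM, and *Hoxc12* had 1 count in all.

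*Hoxc13* needs a separate reading, because hair follicles and nails use it at every body site. It was at 0.467, 0.212, 1.35, 0.367 and 0.246 FPKM in the Ldha-null tumors and at 0.118, 0.221, 0.0627, 0.0919 and 0.271 FPKM in the wild-type tumors, with KO3 the highest on 50 counts. *Foxn1*, a hair and epidermal factor that acts with it, was at 3.41 FPKM in that tumor and at 4.53 FPKM in WT5, where *Hoxc13* was 0.271 FPKM. Of 8 measured hair keratins, *Krt31*, *Krt33b*, *Krt34*, *Krt35* and *Krt86* were at 0 in KO3, as in many of the other tumors, and *Krt33a*, *Krt25* and *Krt71* were at 0.172, 0.167 and 0.243 FPKM. The 11 measured hair markers summed to 6.30 FPKM there against 0.894 to 7.43 FPKM over all tumors. Their part in the *Hoxc13* level was not tested.

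At 1 FPKM the *Hoxd* cluster had the same posterior limit in all tumors. *Hoxd8* stood at 67.6, 7.13, 4.35, 13.6 and 3.67 FPKM and 2.36, 3.88, 2.52, 7.06 and 5.14 FPKM in the 2 genotypes. *Hoxd9*, a gene of limb and lower trunk, stood at 16.1, 2.77, 1.87, 2.96 and 1.76 FPKM and 1.14, 1.56, 2.02, 2.06 and 1.87 FPKM. KO1 was far above the rest for both, and the other 9 tumors lay within 2.36 to 13.6 FPKM for *Hoxd8* and 1.14 to 2.96 FPKM for *Hoxd9*. *Hoxd10*, of the hindlimb, stood at 0.1899, 0.223, 0.366, 0.133 and 0.701 FPKM and 0.224, 0.3, 0.637, 0.2801 and 0 FPKM, under the limit everywhere. *Hoxd4* passed the limit in KO4 alone, at 1.48 FPKM, and shares 52.3% of its exon bases with other genes. *Hoxd1*, *Hoxd3* and *Hoxd11* stayed at or under 0.249 FPKM, though 62.8% of the exon bases of *Hoxd3* lie in other genes too.

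The boundary of a cluster in a tumor was then taken as the highest paralog number at 1 FPKM or more. For *Hoxd* it was 9 in 10 of 10 tumors, although at 2 FPKM it was 8 in 5 tumors and at 0.1 FPKM 10 in 9 tumors. For *Hoxa* it was 7 in 5 tumors (3 Ldha-null, 2 wild-type), 5 in KO2, WT1 and WT2, 9 in WT3 and 10 in KO1. For *Hoxc* it was 9 in 5 tumors (3 Ldha-null, 2 wild-type), 8 in WT5, 10 in KO1, 6 in WT1, 4 in WT2, and 13 in KO3, where it became 8 without *Hoxc13*. For *Hoxb* it was 9 in 4 tumors (2 of each genotype), 8 in KO5 and WT5, 7 in KO1 and KO2, and 4 in WT2, and no *Hoxb* gene reached the limit in WT1. The median boundary was 7 for *Hoxa* and 8 for *Hoxb* in either genotype, and for *Hoxc* 9 in the Ldha-null and 8 in the wild-type tumors. At 1 FPKM the lowest boundaries of *Hoxb* and *Hoxc* were those of WT1 and WT2, below every Ldha-null tumor. This depended on the limit. At 2 FPKM KO2, like WT1, had no *Hoxb* gene past the limit and a *Hoxc* boundary of 6.

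Some of these boundaries rest on few counts. In KO2, *Hoxb7* was at 1.12 FPKM on 16 counts (95% exact Poisson interval 0.637 to 1.81 FPKM) and *Hoxc9* at 1.12 FPKM on 29 counts (0.748 to 1.60 FPKM), so either could lie under the limit by counting error alone. The same holds for *Hoxb9* in KO3, at 1.10 FPKM on 40 counts (0.784 to 1.49 FPKM), and for *Hoxa10* in KO1, at 1.16 FPKM (0.801 to 1.62 FPKM). *Hoxd9* in WT1 was at 1.14 FPKM on 42 counts (0.824 to 1.55 FPKM). Just outside the limit, *Hoxb4* in WT1 was at 0.725 FPKM on 32 counts, *Hoxb8* in KO1 at 0.893 FPKM on 23 counts and *Hoxc6* in WT2 at 0.949 FPKM on 14 counts. Division of FPKM by the TMM scaling factor, an alternative chosen after seeing the data because muscle RNA took part of the total of KO1, moved its *Hoxb* boundary from 7 to 8 and no other boundary.

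**Figure D3:**
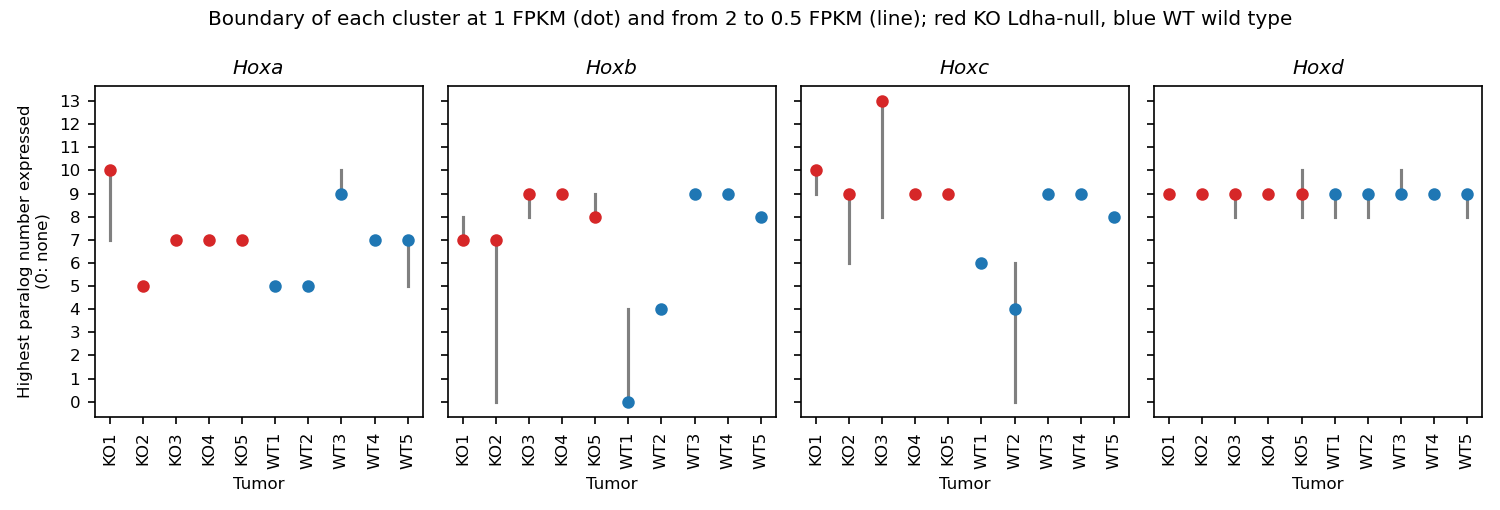
Highest paralog number expressed in each cluster (panels) for each tumor (KO, Ldha-null, red, and WT, wild type, blue), at 1 FPKM (dot) and over limits from 2 to 0.5 FPKM (grey line), with 0 where no gene of the cluster reached the limit. The *Hoxd* dots all sit at 9, whereas the *Hoxb* dots run from 0 to 9 and the *Hoxc* dots from 4 to 13, with long lines for KO2, KO3, WT1 and WT2.

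The amount and the mix of Hox transcripts also varied from tumor to tumor. The summed level of the 39 genes was 181, 51.4, 81.1, 267 and 218 FPKM in KO1 to KO5 and 34.9, 42.8, 374, 267 and 133 FPKM in WT1 to WT5. The number of genes expressed was 18, 11, 19, 20 and 18 in the Ldha-null tumors and 10, 9, 21, 18 and 19 in the wild-type tumors, with a median of 18 in each genotype. WT1, WT2 and KO2 were the 3 lowest on both measures.

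In WT1 and WT2, genes of paralog numbers 1 to 4 made 58.4% and 57.8% of the summed level, and the *Hoxa* cluster alone made 66.1% and 54.2%. In KO2 the share of paralogs 1 to 4 was 30.8%. It was 15.4% to 27.5% in KO3 to KO5 and WT3 to WT5, whose most abundant Hox gene was *Hoxc6*, *Hoxc8* or *Hoxb7*. KO1 had another mix, with 5.66% from paralogs 1 to 4, 19.5% from paralogs 9 to 13 and 46.8% from the *Hoxd* cluster, led by *Hoxd8*. Beside this it held the muscle RNA given above, and 3 salivary gland markers, *Spt1*, *Prol1* and *Amy1*, at 501, 52.2 and 75.2 FPKM, against at most 1.99 FPKM for any of them in another tumor. *Smr3a*, *Prb1*, *Dcpp1* and *Dcpp2* of the same 10-gene list were at 0 in all tumors. *Aqp5*, also of that list, was lowest in KO1, at 4.12 FPKM against up to 1483 FPKM in WT4, *Muc19* was at 0.0676 FPKM there and *Bpifa2* at 0.368 FPKM. The part of muscle or gland RNA in its Hox levels was not tested.

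Tumors were compared in pairs by the Pearson correlation of log2(FPKM + 0.1) over the 39 genes, as a description across genes that are not independent replicates. KO4 and WT4 were the most alike (r = 0.982) and were the only 1 of 45 pairs to share the boundary of all 4 clusters. Both had the *Hoxb9* level above 10 FPKM given above, and *En1*, a factor of ventral limb skin, stood at 1.54 and 1.64 FPKM in them against at most 0.712 FPKM elsewhere. These 2 tumors were also alike over the 14009 genes of at least 1 FPKM on average (r = 0.973). WT1 and WT3 were the least alike in Hox genes (r = 0.454), although over those 14009 genes their correlation was 0.910. The Hox value takes in genes at 0 in every tumor, unlike the value over 14009 genes. With log2(FPKM + 1) the least alike pair was WT2 and WT4 (r = 0.289), and WT1 and WT3 stood at 0.36.

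Sharing a genotype did not go with a more similar Hox pattern. The median r was 0.734 over the 20 pairs of 1 genotype (range 0.454 to 0.946) and 0.758 over the 25 pairs of different genotype (range 0.499 to 0.982), and the nearest neighbour was of the other genotype for 8 of 10 tumors. The pairs share tumors, so no test was made. In all, 23 of 45 pairs shared the boundary of only 1 cluster, which was *Hoxd*, and 7 pairs shared 3.

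**Figure D4:**
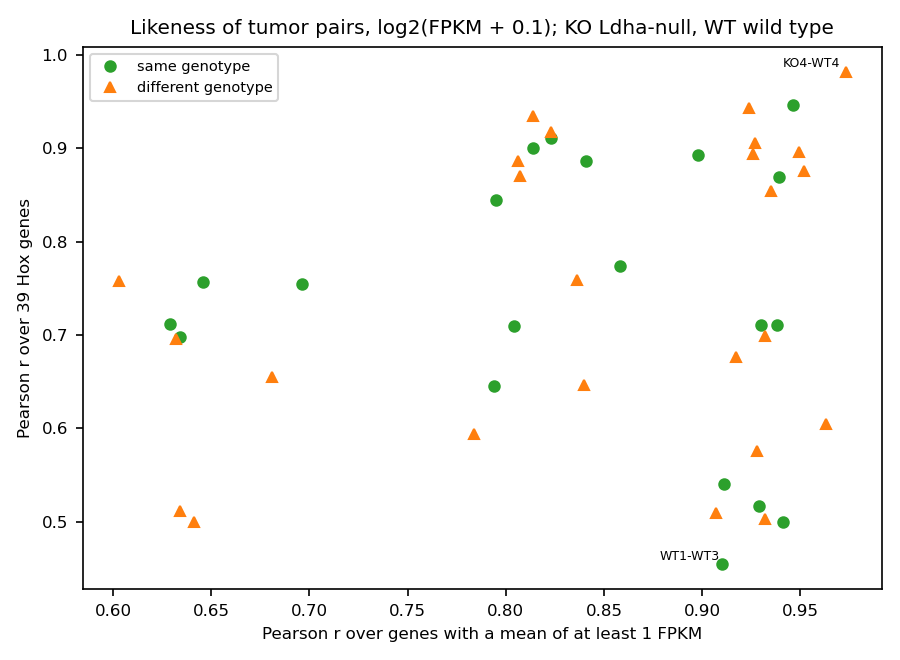
Each point is a pair of tumors, placed by its Pearson r of log2(FPKM + 0.1) over the 14009 genes whose mean reached 1 FPKM (horizontal) and over the 39 Hox genes (vertical), with pairs of the same genotype as green circles and of different genotype as orange triangles. Pairs at the right edge, alike over all genes, run from 0.454 (WT1-WT3) to 0.982 (KO4-WT4) in Hox genes, and the 2 kinds of symbol intermingle.

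Between genotypes, the question of the study's design, no Hox gene passed the test. Of the 39 genes 23 had enough counts to be tested with edgeR's quasi-likelihood test, and 0 had an adjusted p under 0.05 (smallest adjusted p = 0.999), as for 0% of all 15176 genes tested. DESeq2 also called 0 of them. The remaining 16 were under the count filter. Of the 23, 8 estimates were higher and 15 lower in Ldha-null tumors, with a median log2 fold change of -0.15 beside 0.03 over all genes tested. The sign of that median was not stable, at 0.09 without KO2, 0.24 without WT3 and 0.11 without WT4. For 0 of 23 genes did the ranges of the genotypes stay apart (0.185% of all genes tested). The data leave much room, since the 95% interval spanned more than 4-fold for 22 of the 23 genes, and for 0 of the 23 did it lie wholly within 2-fold of no change.

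At an unadjusted p under 0.05 there were 5 Hox genes, which is 21.7% of the 23 tested against 3.96% of all genes tested. *Hoxc13*, *Hoxd8* and *Hoxd9* were the 3 with a higher estimate in Ldha-null tumors (3.56% of all genes), and *Hoxa2* and *Hoxa3* the 2 with a lower estimate (0.395% of all genes). *Hoxc13* had a mean of 0.528 ± 0.210 FPKM in the KO tumors against 0.153 ± 0.0398 FPKM in the WT tumors (SEM, n = 5 each). Its log2 fold change was 2.03 (SE 0.70, adjusted p = 0.999 by edgeR), and 1.34 without KO3, where it was no longer past the unadjusted threshold. The log2 fold change was 2.83 (SE 0.998) for *Hoxd8* and 2.14 (SE 0.82) for *Hoxd9*. Both rested on KO1, without which they were 0.73 and 0.41. *Hoxa2* was at 1.63 ± 0.545 and 3.76 ± 0.719 FPKM with a log2 fold change of -1.13 (SE 0.46), and *Hoxa3* at 3.90 ± 0.818 and 7.01 ± 0.924 FPKM with -0.78 (SE 0.35).

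When the genotype labels were permuted in every possible way (an exact test, two-sided, on log2 CPM, run for the 23 tested genes), *Hoxa2* gave p = 0.0317 and *Hoxc13* p = 0.0397, against a smallest possible p of 0.00794. The same exact test gave p = 0.0556 for *Hoxa3*, 0.0794 for *Hoxd9* and 0.119 for *Hoxd8*. KO1, KO3 and WT5 were the tumors of lowest summed fibroblast markers. Without them, 0 of the 22 Hox genes then tested had an unadjusted p under 0.05, beside 1.59% of all genes. *Hoxa2* still had a log2 fold change of -0.99 in that refit, and *Hoxc13* was not tested in it.

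**Figure D5:**
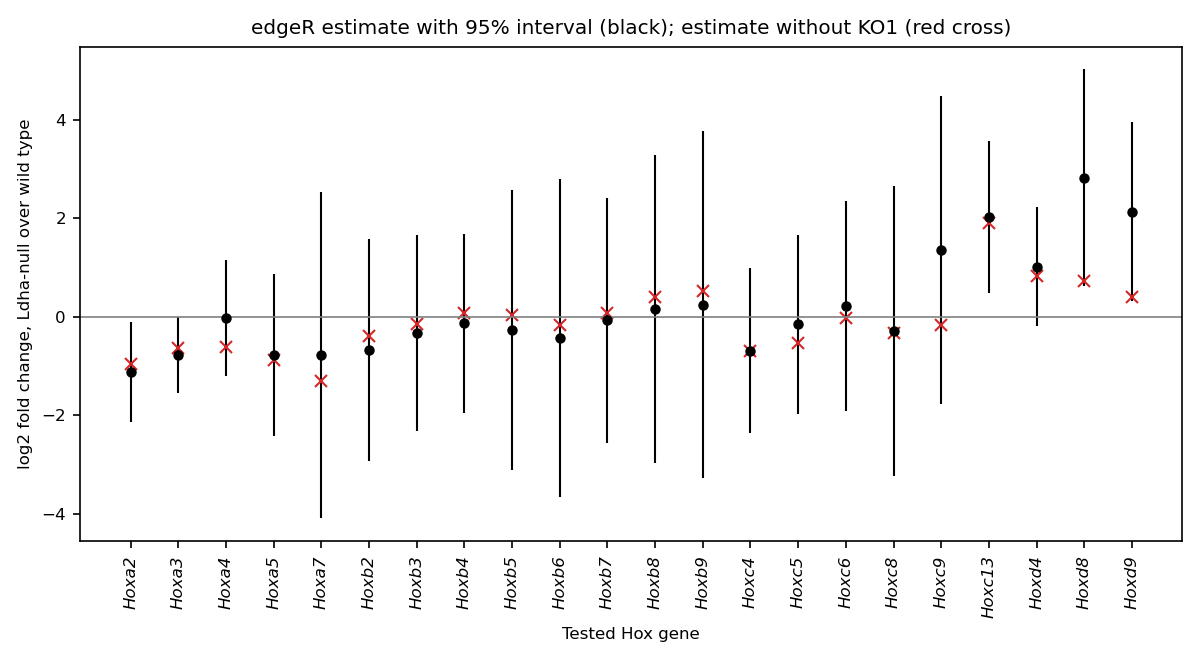
Log2 fold change, Ldha-null over wild type, of 22 tested Hox genes from edgeR (black dot) with its 95% interval (bar), and the estimate without KO1 (red cross). The bars of all but 5 genes cross 0, and the crosses of *Hoxd8*, *Hoxd9* and *Hoxc9* lie far below their dots.

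The Hox genes varied widely between tumors whatever the genotype. The standard deviation of log2 CPM over the 10 tumors had a median of 1.65 for the 23 tested genes, beside 0.64 for all 15176 genes tested, and 22 of the 23 lay above the latter. For 14 of them it exceeded 1.47, the 90th percentile of all genes. *Hoxb6* varied most, at 3.32, and *Hoxa3* least, at 0.63. Low counts can raise this measure, and the genes were not matched by level. At a mean of at least 1 FPKM the medians were 1.66 for 19 Hox genes and 0.60 for all genes. Without KO1, KO3 and WT5 the medians were 1.83 and 0.41, so the spread was as large among the other 7 tumors.

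Genes that work with or regulate the Hox genes were taken from lists, which hold only gene names. The 9 cofactors were all tested, and 0 passed the edgeR test at an adjusted p under 0.05. *Pknox2* reached 27.9 FPKM in KO1 and 3.17 FPKM at most elsewhere, and was the 1 cofactor at an unadjusted p under 0.05. Of 20 Polycomb and Trithorax genes, 0 passed the adjusted test and 0 had an unadjusted p under 0.05. Over all genes tested the unadjusted share was 3.96%, to be set beside these lists and those below.

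Retinoic acid, made by retinaldehyde dehydrogenases, switches on anterior Hox genes in the embryo. Of 16 genes of this pathway 14 were tested and 0 passed edgeR's test at an adjusted p under 0.05. *Aldh1a1*, such a dehydrogenase, was the 1 gene with a higher estimate in Ldha-null tumors at an unadjusted p under 0.05, at 138 FPKM in KO1 and at most 8.61 FPKM elsewhere. *Crabp1*, which binds retinoic acid in the cell, spanned 11.8 FPKM in KO1 to 1978 FPKM in WT1. The *Cdx* genes drive posterior Hox genes in the embryo. The 5 *Cdx* and *Evx* genes were too low to test.

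The clusters also give noncoding transcripts. Of 16 listed, 9 were measured and 6 tested, and 0 passed edgeR's test at an adjusted or an unadjusted p under 0.05. *Hoxb5os*, from the middle of *Hoxb*, was at 1.52, 0.154, 2.996, 11.2 and 12.5 FPKM and 0, 0.361, 15.8, 7.94 and 8.49 FPKM, low or absent in the tumors with little *Hoxb6*. *Hotairm1*, from the anterior end of *Hoxa*, was present in all tumors at 4.02 to 33.4 FPKM. *Hotair*, *Hottip* and *Hoxa11os*, from the posterior ends of *Hoxc* and *Hoxa*, were listed at 0 counts in every tumor. *Hoxa11os* shares exon bases with *Hoxa11*, where fragments that overlap both are left out.

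Of 10 other factors of position in limb, trunk and face, 4 could be tested and 0 passed edgeR's test at an adjusted or an unadjusted p under 0.05. *Tbx4* and *Tbx5*, of hindlimb and forelimb, reached at most 0.302 and 0.199 FPKM. *Pitx1*, of the hindlimb and jaw, stood at 636 FPKM in WT5, 39.2 FPKM in KO3 and 25.2 FPKM in KO1. These were the tumors of lowest summed fibroblast markers and of highest summed keratinocyte markers (35020, 34680 and 5261 FPKM in the same order). In the others *Pitx1* was at no more than 4.4 FPKM. The part of the cell mix in the *Pitx1* level was not tested. *Tbx15*, of trunk skin and muscle, stood at 96.9 FPKM in KO1 and at 4.33 to 24.4 FPKM elsewhere.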

How the data were processed

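RNA-seq profiles of 10 mouse cutaneous tumors were read. After base calling with CASAVA 1.8, the authors used TopHat2 against mm10 and then HTSeq in its union mode, and deposited the resulting whole-number counts of each gene. Beside each count they deposited an FPKM value. The release of the annotation is not given in the sources used here. For 12 members the FPKM followed, within 1%, from the count and the gene length in the file, 22 implied another length, and 5 had no counts. The coordinates of 38 of 39 members were those of the GENCODE annotation of the same build. The protocol is not described as keeping strand, and 16 members share exon bases with another gene, 6 of them over 25%.

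Groups were taken from the labels. Total counts were 12969508 to 17694201 per tumor, 0 columns were left unmapped, and intervals of a level cover counting error only. Tumors of 1 genotype differed by far more than sampling noise (chi-square per degree of freedom at least 85.2 over 20 pairs). Counts were fitted in R 4.3.3 with edgeR 4.0.16 (filterByExpr at 10 counts and 15 in total, TMM, quasi-likelihood F-test, no covariate), with Benjamini-Hochberg adjustment over 15176 genes and a threshold of 0.05. For each tested member the genotype labels were also permuted over all assignments of 5 of 10 tumors (exact, two-sided, log2 CPM with a prior count of 2). The study names no test for the count data.

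The members and the gene lists were chosen with earlier results of these data known. Genes given with the value of every tumor were those at a boundary in any tumor, those beyond it that reached 0.1 FPKM, the highest of each cluster and the 5 of smallest p. *Hoxa6* and other members were named for completeness, and *En1* and *Foxn1* after their values were seen. A change of sign counted as a reversal only for a value that had passed the test. Alternatives were DESeq2 1.42.0, RLE scaling, no filter, the tumor number as a block, other limits for an expressed gene, and leaving out tumors. Whether equal tumor numbers mark paired mice is not stated, and the numbers were not read as pairs. Some items that meet the rule for naming are not reported here, and the plots leave 1 member out.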

Additional observations from a re-analysis of the deposited data

Results flagged for a closer look

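Within the 5 tumors of a genotype, a tumor was marked when its gap to the next value, in log2 CPM, took more than 0.71 of the whole range (Dixon's 95% value for 5 samples). Over 22 tested Hox genes in both genotypes this marked 1 of 44 groups, where chance gives about 1 in 20, or 2.2. It concerns KO1, the tumor with muscle RNA. *Hoxd9* was at 16.1 FPKM there, against 1.76 to 2.96 FPKM in the other null-labelled tumors. The part of muscle RNA in this value was not tested.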

How the results depend on the processing

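The count of 0 Hox genes at an adjusted p under 0.05 was the same with DESeq2, RLE scaling, no filter, the replicate block, without each tumor in turn, and without KO1, KO3 and WT5 together. The unadjusted count went from 5 (3.96% of all genes) to 3 with DESeq2 (3.51%), which gave no p for *Hoxd8* and *Hoxd9*, to 1 with the replicate block (0.791%) and to 0 without those 3 tumors (1.59%), where *Hoxc13* was not tested and *Hoxa2* was at -0.99 beside -1.13. The median log2 fold change of the Hox genes was -0.15, but -0.59 to 0.24 without each tumor in turn, 0.02 without those 3 tumors and 0.36 with the replicate block, so its sign depends on the fit. Tumors of the same number deviated from their group means with correlations of -0.51 to 0.55, and 1 of 5 exceeded 0.1, so the numbers were not read as pairs, and 1 null tumor correlated best with its own number. Without each tumor in turn, 0 to 3 Hox genes had a permutation p under 0.05. The count was 0 without KO1, KO4, WT1 or WT3. The permutation test was run on Hox genes only, so no share over all genes can be set beside it. For the 5 genes of smallest p the sign changed in 0 of 74 estimates, counting each gene in each refit. These genes were picked by p in the same tumors that the refits reuse, so this count does not bear on their direction.

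The limit for an expressed gene mattered more. The median number of Hox genes expressed per tumor, 18 at 1 FPKM, was 25 at 0.1 FPKM, 13.5 at 2 FPKM and 22.5 at 10 counts. At 0.1 FPKM 8 tumors shared a *Hoxb* boundary of 9 and 8 a *Hoxc* boundary of 13, since traces of *Hoxb9* and *Hoxc13* then counted. At 2 FPKM 5 tumors kept the *Hoxd* boundary of 9, and the other 5 had 8. The commonest boundary itself moved too. At 0.1 FPKM it was 9 for *Hoxa* (4 tumors) and 10 for *Hoxd* (9 tumors), and at 10 counts it was 13 for *Hoxc* (5 tumors). Depth limits the boundaries that rest on 16 to 50 counts, and overlapping genes and the unknown body sites limit what they show. The gene length behind FPKM limits them too. FPKM was 2.15, 1.52, 1.58 and 1.55 times that from the listed length for *Hoxa9*, *Hoxa10*, *Hoxc9* and *Hoxb7*. For *Hoxa5* and *Hoxd9* the ratio was 1.0. Boundaries from listed lengths were not computed.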
